A study of Mus musculus with 6 samples.

Results

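The genes described here are 46 genes of mitosis and G2/M, that is, of the steps from the end of DNA replication to the separation of the daughter cells, measured in mouse dental epithelial organoids (DEOs). They were taken by name, from a list of 46 symbols out of the 47360 gene symbols of the expression table. All 46 were found, each as a single entry, and they lie on 16 chromosomes. Each had at least 1 FPKM, a fragment count normalised to transcript length and to library size, in every library used, so that no member was lost to a filter on low values.

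Bulk RNA-seq was made from DEOs grown for 14 days in Matrigel, starting from adult dental epithelial stem cells (aDESCs) of the apical incisor bud of a 9-week-old female wild-type C57BL/6J mouse. All media held Wnt3a conditioned medium at 50%, R-spondin1 conditioned medium at 5%, EGF at 100 µg per ml, N-acetylcysteine and the ROCK inhibitor Y27632, with doses as the labels give them. The +N medium added Noggin at 200 µg per ml, a BMP antagonist that the other media also held, +ND added DBZ at 10 µM (the study's methods text gives this dose in mM), +NF added FGF10 at 100 µg per ml, and +NFD added both. DBZ (dibenzazepine) is a γ-secretase inhibitor that keeps Notch receptors from being activated, and FGF10 is a growth factor made by the dental mesenchyme. Each medium had 1 library, so no difference between media has a replicate check, and no test is given anywhere in this text. In RNA from whole organoids, fewer dividing cells and less mitotic RNA per dividing cell cannot be told apart.

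Mitosis genes are transcribed in a wave that starts late in S phase and peaks in G2 and M, and they are largely silent in resting cells. Their promoters are known for the cell cycle genes homology region (CHR), bound by the MuvB complex, which represses them in resting cells as part of the DREAM complex and activates them in G2 together with B-Myb and FOXM1, and for CCAAT boxes bound by NF-Y. Through this shared control, the summed level of such genes is widely used as a measure of how much of a tissue is dividing. In the mouse incisor, dividing epithelial cells lie next to the stem cells of the apical bud and feed the enamel-forming lineage.

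Because the members moved largely together across media, as described further on, their promoters are shown first. RefSeq windows on GRCm38.p6, from 250 bases before to 50 bases after a transcript start, were matched by symbol for 39 of the 46 members, in 41 windows. Ccna2, Aurkb, Kif20a, Smc4, Cdca2, Tpx2 and Dlgap5 had no window. The following 6 are the last 150 bases before the start, with TTTGAA (the letters of the CHR) and CCAAT in capitals on either strand, so that TTCAAA and ATTGG are the same letters read from the other strand. Cdk1, Cdc20 and Top2a were chosen as members with both motifs, Ccnb1 as a member with CCAAT alone, Ncapg as the member with the highest ratio in any comparison, and Pttg1 as the member with the lowest ratios over +N, with neither motif.
Cdk1, chr10:69352913-69353062, minus strand: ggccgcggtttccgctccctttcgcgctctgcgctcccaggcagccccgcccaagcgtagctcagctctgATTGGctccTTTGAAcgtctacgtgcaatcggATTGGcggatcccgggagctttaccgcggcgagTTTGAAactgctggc
Ccnb1, chr13:100786487-100786636, minus strand: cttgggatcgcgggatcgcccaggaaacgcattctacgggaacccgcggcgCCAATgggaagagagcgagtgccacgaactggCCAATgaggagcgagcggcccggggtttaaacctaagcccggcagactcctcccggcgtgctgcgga
Cdc20, chr4:118437344-118437493, minus strand: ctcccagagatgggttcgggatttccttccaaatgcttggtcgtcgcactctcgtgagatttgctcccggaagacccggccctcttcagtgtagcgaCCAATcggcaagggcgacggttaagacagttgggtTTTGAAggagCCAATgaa
Top2a, chr11:99024190-99024339, minus strand: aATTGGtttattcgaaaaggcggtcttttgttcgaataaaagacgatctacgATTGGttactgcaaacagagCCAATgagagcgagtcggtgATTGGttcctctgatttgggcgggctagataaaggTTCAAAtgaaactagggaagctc
Ncapg, chr5:45669775-45669924, plus strand: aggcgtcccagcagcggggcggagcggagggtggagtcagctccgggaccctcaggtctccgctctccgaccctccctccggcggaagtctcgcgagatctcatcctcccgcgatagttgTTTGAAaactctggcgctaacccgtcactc
Pttg1, chr11:43425982-43426131, minus strand: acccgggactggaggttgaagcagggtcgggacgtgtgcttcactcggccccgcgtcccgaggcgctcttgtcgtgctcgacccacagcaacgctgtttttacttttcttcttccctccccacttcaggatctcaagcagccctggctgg

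In Cdk1, whose kinase drives entry into mitosis, the window held 2 CHR matches and 2 CCAAT matches in this stretch, and Top2a held 1 CHR match after 4 CCAAT matches. TTTGAA was present in the windows of 30 of the 39 matched members (76.9%). The same letters were present in 20.2% of the 27025 genes of the promoter table, in 14.4% of the 9822 of them that reached 1 FPKM in a library, and in 16.2% (6 of 37) of DNA replication and G1/S genes. Among other mitosis genes, a further list described below, 27 of 48 with a window (56.25%) had these letters. CCAAT was present in 31 of 39 members (79.5%), against 42.7% of the genes at 1 FPKM. Both motifs together were present in 27 of 39 (69.2%), against 6.05%. In the other mitosis genes CCAAT was present in 31 of 48 (64.6%) and both motifs in 19 of 48 (39.6%). For the DNA replication and G1/S genes these were 21 of 37 (56.8%) and 3 of 37 (8.11%). The CHR letters lay around the start, with a median first base at -5 over 43 matches, and the CCAAT letters lay upstream of them, at a median of -71 over 78 matches. Among these matches 2 pairs shared bases, 1 of them a CHR with a CCAAT. The 9 members without TTTGAA in the window were Ccnb1, Nek2, Bub1, Mad2l1, Pttg1, Birc5, Cenpe, Ncaph and Nusap1. A match is a description of letters, and its absence from a window says nothing about a factor. Members with and without the CHR letters had like ratios between media, with a median log2 ratio for +NF over +N of 0.96 in the 30 with a match and 0.93 in the 9 without.

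**Figure D1:**
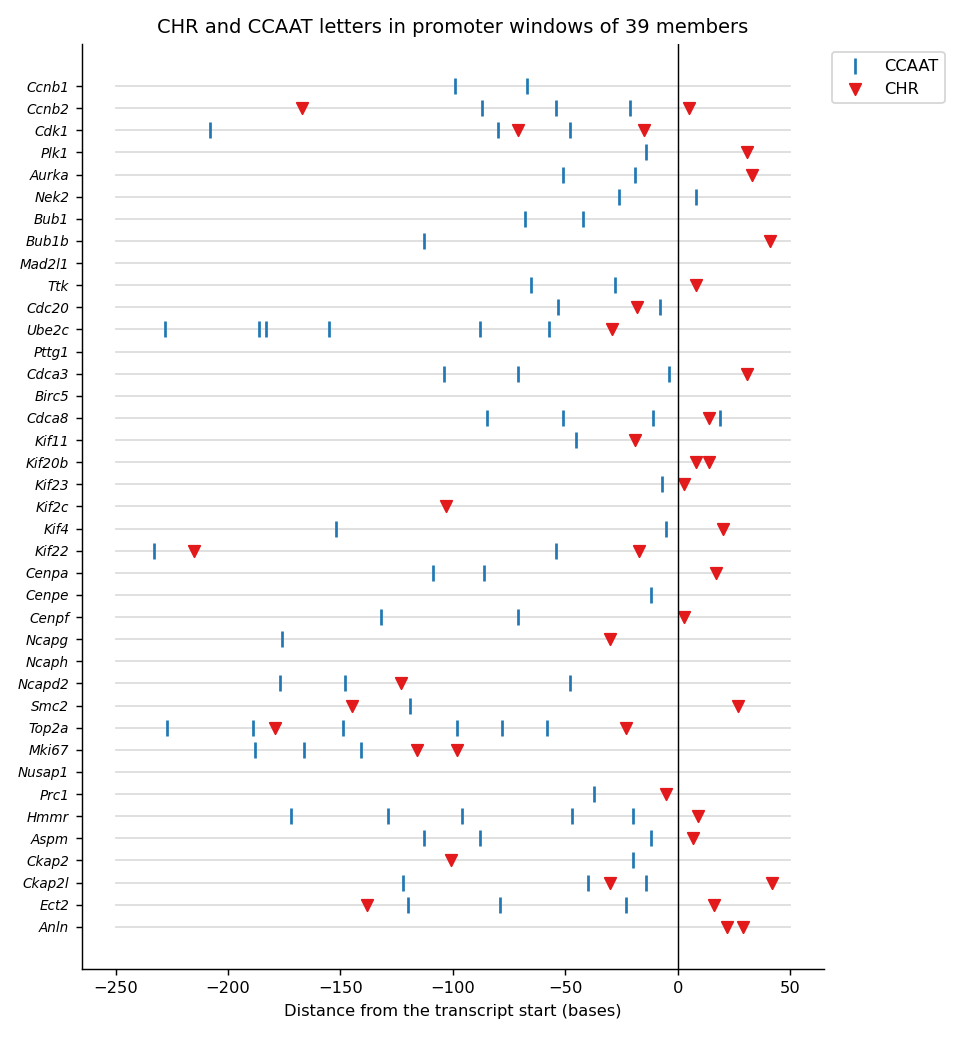
Positions of the CHR and CCAAT letters in the promoter windows of 39 members. The x axis is the distance of the first base of a match from the transcript start in bases, each row is 1 gene, triangles are CHR matches and bars are CCAAT matches on either strand. CHR matches gather around the start (median -5) and CCAAT matches upstream of it (median -71), while Mad2l1, Pttg1, Birc5, Ncaph and Nusap1 have neither in the window.

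The labelled tissue was checked against epithelial markers, which were abundant in all 4 libraries, with Krt5 between 4984 and 6582 FPKM and Krt14 between 5530 and 12652 FPKM. Their level was not even across media. The 7 epithelial markers summed to 20723 FPKM with +N, 11913 with +ND, 16989 with +NF and 14149 with +NFD. In +ND over +N, 2 of the 7 were higher and 5 lower, 3 of them at least 2-fold (5.29% of all genes). In +NF over +N, 4 were higher and 3 lower, and in +NFD over +N, 3 were higher and 4 lower. Of all genes 58.2%, 65.7% and 69.1% were higher in these 3 comparisons. Endothelial markers were near 0, at 0.158 to 0.336 FPKM summed over 6 genes. The 8 suprabasal keratinocyte markers summed to 648 FPKM with +N, 822 with +ND, 58.2 with +NF and 385 with +NFD. In the same order the 8 macrophage markers summed to 625, 521, 449 and 392, and the 10 fibroblast markers to 154, 132, 95.5 and 384. The highest macrophage marker alone stood at 528, 408, 373 and 288 FPKM. Against +N, 4 of 8 macrophage markers at 1 FPKM were higher in +ND, 0 of 7 in +NF and 4 of 7 in +NFD. Of the suprabasal markers that reached 1 FPKM in either library, 6 of 7 were lower in +NF than in +N (65.7% of all genes were higher). In +ND 5 of 8 were higher than in +N (58.2% of all genes). The suprabasal sum was lowest in +NF, in which the mitosis genes were mostly highest. It was highest in +ND, in which 45 of 46 mitosis genes also exceeded +N. Of the fibroblast markers, 9 of 9 that reached 1 FPKM were higher in +NFD than in +NF (57.2% of all genes were). The part of cell makeup in the results below was not tested. Steps between low values put the depth at about 28500000 fragments for +N, 21900000 for +ND, 28700000 for +NF and 27600000 for +NFD. By this approximate scale a member's value rested on 296 fragments (Aspm in +N) to 9980 (Top2a), with a median of 1368 over all members and libraries. The 95% counting interval of a log2 ratio, which covers counting error only, was at most 0.22 wide on either side.

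Summed over the 46 members, the level was 815 FPKM with +N, 1366 with +ND, 1547 with +NF and 1391 with +NFD, and the median member stood at 11.8, 20.95, 24.9 and 22.4 FPKM. The +N library was the lowest of the 4 for 45 of the 46 members (97.8%), against 41.8% of the 13748 genes that reached 1 FPKM in any library. The highest library was +NF for 33 members (71.7%), +ND for 9, +NFD for 4 and +N for none. Over all 13748 genes these shares were 21.2% for +NF, 30.0% for +ND, 32.6% for +NFD and 16.2% for +N. Some of these calls are ties, since 36 of 46 ratios of +NFD over +NF differed from 0 beyond counting error. Among those that did not were Aurkb, Kif22 and Nusap1, highest in +NFD, and Plk1, Cdc20, Ube2c, Pttg1, Cdca8 and Ncaph, highest in +NF. Cenpa, highest in +ND, did not differ from its +NFD value beyond counting error. The step from +N to the next medium was larger than the steps above it. The second-lowest library exceeded the lowest by a median of 1.65-fold (range 1.07 to 2.19), whereas the highest exceeded the second-lowest by a median of 1.27-fold (range 1.016 to 1.70), and the first ratio was the larger of the pair in 42 of 46 members. The order of the media from high to low was +NF, +NFD, +ND, +N in 19 members, +NF, +ND, +NFD, +N in 13, +ND, +NF, +NFD, +N in 8 and +NFD, +NF, +ND, +N in 4. Log2 ratios below are differences of log2(FPKM + 1), a scale on which the change of a low gene is understated, and a gene was counted at a 2-fold ratio. Centring means that the median of all genes in a comparison was subtracted.

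**Figure D2:**
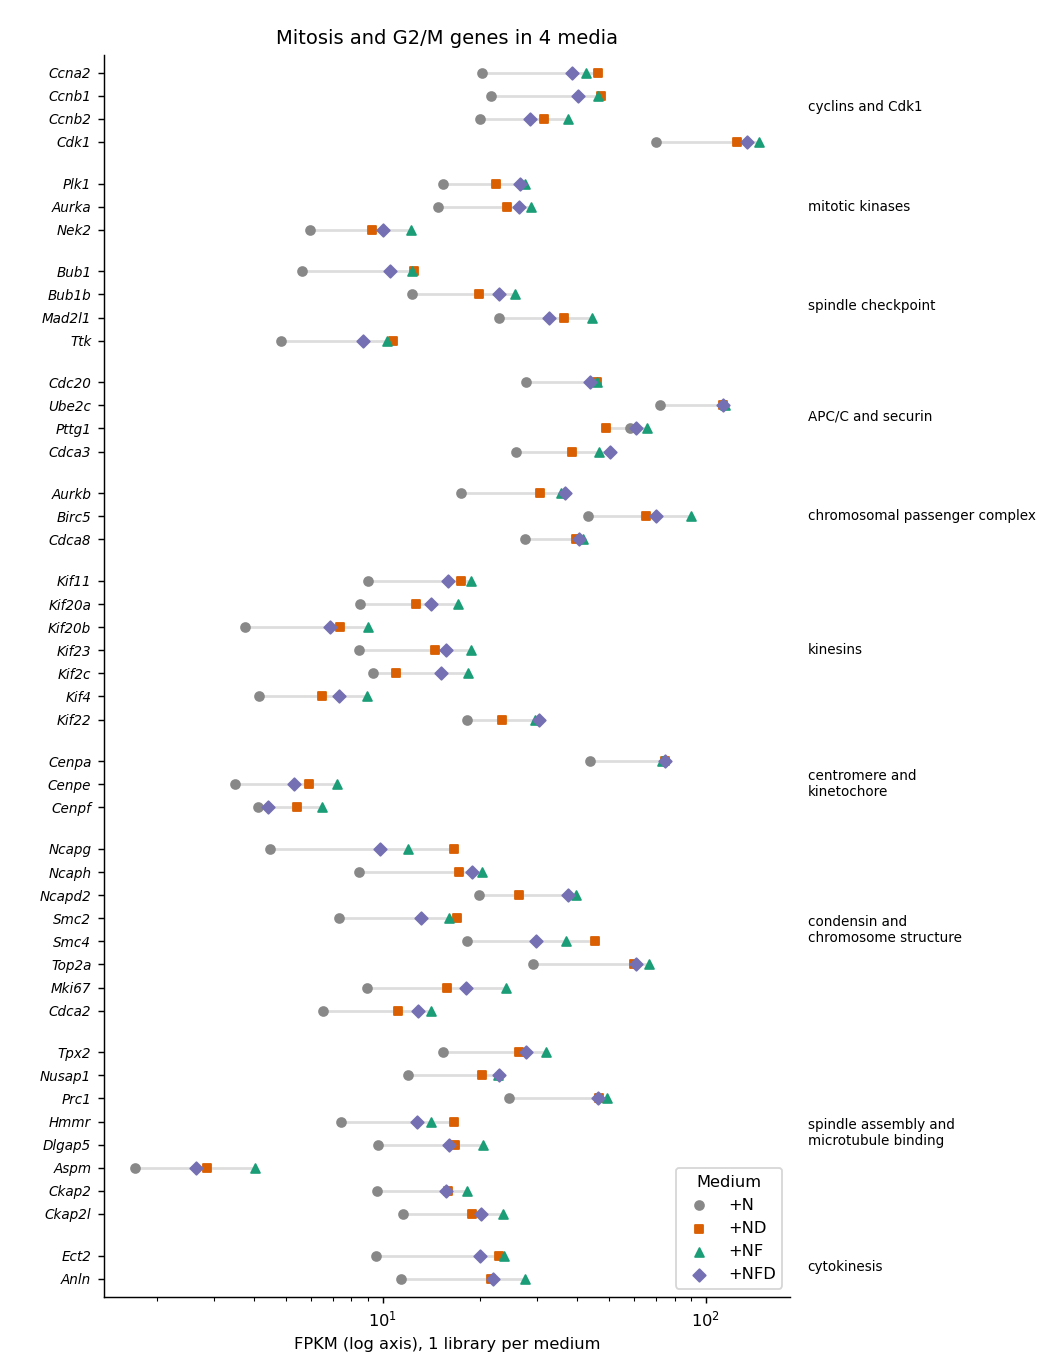
FPKM of each of the 46 members in the 4 media, on a log axis, grouped by role. Each symbol is 1 library, and the grey line spans the lowest to the highest value. The +N value is the leftmost point in 45 of 46 rows, Pttg1 being the exception. In 42 of 46 rows the gap from the lowest to the second-lowest value is wider than the span of the 3 values above the lowest. That span reaches 1.70-fold in Ncapg.

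The cyclins and Cdk1, which form the kinase that starts mitosis, were higher in all 3 media than in +N. Cdk1 (chr10:69336635-69352938) was measured at 70.1 FPKM with +N, 125 with +ND, 146 with +NF and 134 with +NFD. Its level in +NF was 2.09-fold that in +N. Ccnb1, cyclin B1, stood at 21.7, 47.5, 46.2 and 40.1 FPKM in +N, +ND, +NF and +NFD, so that +ND was highest by a small margin over +NF. Ccna2, cyclin A2, had the same order, at 20.2, 46.2, 42.5 and 38.5 FPKM. Ccnb2, cyclin B2, instead peaked in +NF, at 20.0, 31.5, 37.5 and 28.6 FPKM.

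The mitotic kinases Plk1, Aurka and Nek2, which act on centrosomes and spindle poles, all peaked in +NF. Plk1 was at 15.4 FPKM with +N, 22.5 with +ND, 27.6 with +NF and 26.6 with +NFD, and Aurka, Aurora A, at 14.8, 24.3, 28.7 and 26.5. Of the spindle checkpoint genes, which delay anaphase until every kinetochore is attached, Bub1 and Ttk were highest in +ND and Bub1b and Mad2l1 in +NF. Mad2l1 was at 22.9 FPKM with +N, 36.4 with +ND, 44.4 with +NF and 32.7 with +NFD. Its value in +NFD was thus below that of either medium with a single factor.

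The genes of the anaphase-promoting complex (APC/C) step had the smallest ratios of the role groups in +NF, with a median log2 ratio of 0.68 over +N. Ube2c, the ubiquitin-conjugating enzyme of the APC/C, was at 72.3 FPKM in +N and at 113, 114 and 113 in +ND, +NF and +NFD, and Cdc20, its activator, at 27.8, 45.9, 46.04 and 43.7. Both thus had nearly the same level in the 3 media other than +N. Pttg1 (chr11:43420250-43426251), securin, which holds separase in check, was the member that varied least, at 58.1, 49.1, 65.9 and 60.8 FPKM in +N, +ND, +NF and +NFD. It was the only member that was not lowest in +N, and its +NFD and +N values did not differ beyond counting error. Cdca3, which promotes entry into mitosis, was one of the 4 members highest in +NFD, at 25.8, 38.5, 46.6 and 50.4 FPKM.

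The chromosomal passenger complex, which corrects attachments between chromosomes and spindle, was measured through Aurkb (Aurora B), Birc5 (survivin) and Cdca8 (borealin). Birc5 was at 43.3 FPKM with +N, 65.3 with +ND, 89.6 with +NF and 70.1 with +NFD, and stood apart in +NF. Aurkb was at 17.4, 30.6, 35.7 and 36.7 FPKM, with +NF and +NFD side by side. Among the 7 kinesins, the motors of the spindle and midzone, 6 were highest in +NF and Kif22 in +NFD. Kif2c, which depolymerizes microtubules at centromeres, had the smallest +ND ratio among the kinesins, at 9.35 FPKM with +N, 11.01 with +ND, 18.3 with +NF and 15.2 with +NFD.

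Of the centromere and kinetochore members, Cenpa, the histone H3 variant that marks centromeres, was at 43.8 FPKM in +N and at 74.8, 73.1 and 74.7 in +ND, +NF and +NFD. Cenpf, a kinetochore gene, stood at 4.11 FPKM with +N, 5.42 with +ND, 6.50 with +NF and 4.41 with +NFD. Its +NFD level came back to near that of +N, and those 2 values did not differ beyond counting error.

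Condensin and chromosome structure genes had a median log2 ratio over +N of 1.10 in +NF and 0.98 in +ND. Only the 2 cytokinesis genes had higher group medians, at 1.22 and 1.03. The largest single-gene ratio in each comparison with +N was in the condensin and chromosome structure group. Ncapg (chr5:45669919-45700546), a subunit of condensin I, the ring complex that compacts mitotic chromosomes, was at 4.47 FPKM with +N, 16.6 with +ND, 12.0 with +NF and 9.78 with +NFD. The +ND value was 3.71-fold the +N value, the largest fold of any member in any comparison. Smc4, the ATPase subunit that all condensins share with Smc2, had the same order, at 18.3, 45.5, 36.8 and 29.8 FPKM, and Smc2 likewise, at 7.32, 17.0, 16.1 and 13.2. The other condensin I subunits had another order, Ncapd2 at 19.8, 26.5, 39.6 and 37.5 FPKM and Ncaph at 8.47, 17.2, 20.3 and 18.9. In these libraries the genes for subunits of 1 complex did not keep the same proportion across media. Mki67 (chr7:135689788-135716379), which coats mitotic chromosomes and is the antigen of Ki-67 staining, was at 8.94, 15.8, 24.1 and 18.05 FPKM. Its +NF value was 2.70-fold its +N value and the largest log2 ratio in that comparison (1.34). Top2a, the topoisomerase that untangles sister chromatids, was at 29.3, 60.0, 66.7 and 60.9 FPKM.

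Spindle assembly genes ranged from Aspm, a spindle pole protein and the lowest member, at 1.71 FPKM with +N, 2.86 with +ND, 4.02 with +NF and 2.64 with +NFD, to Prc1, which bundles midzone microtubules, at 24.5, 46.8, 49.6 and 46.2. Hmmr was the only member of this group that was highest in +ND, at 7.43, 16.6, 14.1 and 12.8 FPKM. The cytokinesis genes Ect2, which activates RhoA at the cleavage furrow, and Anln, the furrow scaffold anillin, were among the 6 members that stayed at least 2-fold higher in +NF after centring. Ect2 was at 9.50, 23.0, 23.6 and 20.0 FPKM and Anln at 11.4, 21.6, 27.6 and 21.9, in the order used above.

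The first comparison asks what FGF10 added to +N. In +NF, 46 of 46 members exceeded their +N value, with a median log2 ratio of 0.97 and a range from 0.18 (Pttg1) to 1.34 (Mki67). The median of all 13090 genes that passed the filter of 1 FPKM in the higher library was 0.12, and relative to it the members' median was 0.85. A ratio of at least 2-fold was reached by 17 members (2.76% of all genes tested were at least 2-fold higher), and 65.7% of all genes were higher. No member was at least 2-fold lower (2.44% of all genes). The threshold ran through the middle of the list, with Cdca2 just inside at 1.00 and Bub1b just outside at 0.997. After centring on all genes 6 members reached 2-fold (1.89% of all genes did). Without the pseudocount 29 members did, a setting for which the share of all genes was not counted.

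The second comparison asks what DBZ added to +N, and shares the +N library with the first. In +ND, 45 of 46 members exceeded their +N value, by a median log2 ratio of 0.71 with a range from -0.24 (Pttg1) to 1.68 (Ncapg). The median over 13173 genes was 0.10, and 0.61 remained for the members relative to it. There were 10 members at least 2-fold higher (5.88% of all genes tested), and 58.2% of all genes were higher. No member was at least 2-fold lower (5.29% of all genes). Ttk, at 1.00, was the last inside the threshold and Ncaph, at 0.94, the first outside. With centring 5 members passed it (4.67% of all genes did). The spread among members was wider than in +NF, with the middle 50% between 0.57 and 0.90, against 0.87 and 1.03.

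With both factors, in +NFD, 46 of 46 members again exceeded their +N value, by a median log2 ratio of 0.75, from 0.06 (Pttg1) to 1.07 (Ncaph). All 13358 genes had a median of 0.18, and the members' median relative to it was 0.58, with 44 of 46 members still higher. The 2-fold threshold was passed by 4 members, Ncaph, Top2a, Aurkb and Ect2 (5.85% of all genes tested were at least 2-fold higher, and 69.1% were higher), and by none after centring (4.04% of all genes). No member was at least 2-fold lower (4.03% of all genes). Ect2, at 1.00, was just inside and Ncapg, at 0.98, just outside.

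**Figure D3:**
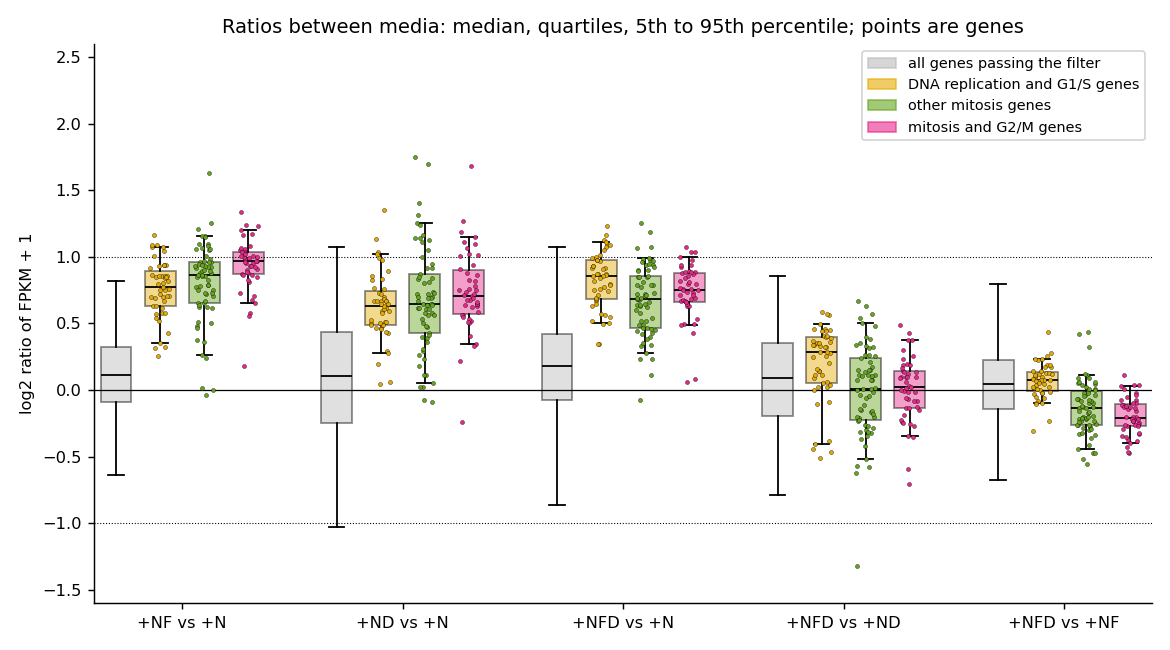
Log2 ratios of FPKM + 1 in 5 comparisons for all genes that passed the filter (grey), DNA replication and G1/S genes (yellow), other mitosis genes (green) and the 46 mitosis and G2/M genes (pink). Boxes show the median and quartiles, whiskers the 5th to 95th percentile, points single genes, and dotted lines 2-fold. The members' median lies above that of all genes in all 3 comparisons with +N, in which 46, 45 (+ND) and 44 (+NFD) members exceed the median of all genes, and most members lie below 0 in +NFD over +NF.

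The 2 comparisons within the factors use +NFD against each medium with a single factor. From +ND to +NFD, that is, with FGF10 added where DBZ was present, 24 members were higher and 22 lower, with a median log2 ratio of 0.02, and none passed 2-fold in either direction (3.39% of all genes were at least 2-fold higher, 3.11% at least 2-fold lower and 59% higher). The direction of this median depended on the scaling. It was -0.07 after centring, with 19 members higher, and 0.24 when libraries were scaled to 8 housekeeping genes, with 37 higher. The members themselves split from -0.71 (Ncapg) and -0.59 (Smc4) to 0.48 (Ncapd2) and 0.43 (Kif2c), and 31 of the 46 ratios differed from 0 by more than counting error. From +NF to +NFD, that is, with DBZ added where FGF10 was present, 41 members were lower and 5 higher, with a median log2 ratio of -0.21, or -0.26 relative to all genes (0.05). None passed 2-fold (3.72% of all genes were at least 2-fold higher, 2.69% at least 2-fold lower and 57.2% higher). Cenpf, at -0.47, Aspm, at -0.46, and Mad2l1, at -0.43, were lowest, and Cdca3, at 0.11, was highest. This median was below 0 under each of the 10 alternative settings, from -0.26 to -0.19.

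Transcript length moved with this last comparison. Over all coding genes the median log2 ratio of +NFD over +NF was 0.12 for longest transcripts under 2000 nt, 0.07 from 2000 to under 4000 nt and -0.02 from 4000 nt. The members in the same classes had -0.06 (8 genes), -0.20 (21 genes) and -0.30 (17 genes). Set against coding genes of their own length class, the members were lower by -0.18, -0.27 and -0.28. Across the 46 members the rank correlation of the ratio with longest transcript length was -0.65 for +NFD over +NF and 0.55 for +NF over +N, as a description of genes that share their libraries. The part of transcript length in the differences among members was not tested.

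The effects of each factor with and without the other can be set side by side, since these pairs share no library. FGF10 went with a median log2 difference of 0.97 without DBZ (+NF over +N) and of 0.02 with DBZ (+NFD over +ND), and its effect was larger without DBZ in 45 of 46 members (97.8%), against 52.4% of all genes. DBZ went with a median of 0.71 without FGF10 (+ND over +N) and of -0.21 with FGF10 (+NFD over +NF), and 40 of the 46 members were higher in the first and lower in the second (87.0%, against 19.9% of all genes). The sum of the single effects of a member had a median of 1.64, and the combined effect had a median of 0.75. The difference between the combined effect and the sum had a median of -0.95, from -1.95 (Ncapg) to 0.12 (Pttg1), and was below 0 in 45 of 46 members, against 51.9% of 13748 genes with a median of -0.02. For each gene this difference equals the FGF10 effect with DBZ minus that without it. It also equals the DBZ effect with FGF10 minus that without it. The 45 of 46 members are thus 1 contrast of the 4 libraries, not separate observations. The single +N library enters both single effects and the combined one.

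**Figure D4:**
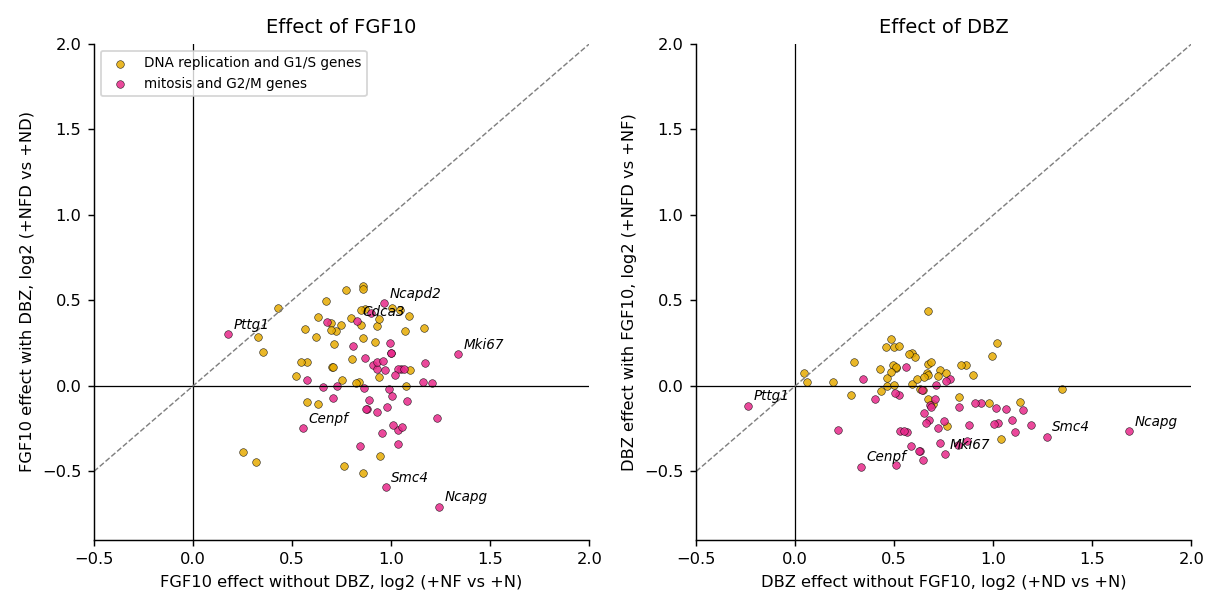
Log2 effect of FGF10 (left) and of DBZ (right) for each gene, without the other factor on the x axis and with it on the y axis. Pink points are the 46 mitosis and G2/M genes, yellow points the 47 DNA replication and G1/S genes, and the dashed line marks equal effects. Of the members, 45 lie below the dashed line in both panels, and most lie below 0 on the y axis at right. The distance of a gene from the dashed line is the same contrast in both panels.

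Genes of neighbouring functions were taken from further lists. The 65 other mitosis genes, among them kinetochore, cohesin, spindle and cytokinesis genes, had median log2 ratios of 0.87 in +NF, 0.64 in +ND and 0.69 in +NFD over +N, and 63, 63 and 64 of them were higher. At least 2-fold higher were 14 (21.5%, against 2.76% of all genes), 12 (18.5%, against 5.88%) and 4 (6.15%, against 5.85%, thus near the share of all genes). These counts were 6, 11 and 2 after centring (1.89%, 4.67% and 4.04% of all genes). Without the pseudocount they were 31, 19 and 19, a setting for which the share of all genes was not counted. Zwint, a kinetochore scaffold gene, was flat at 83.8 FPKM with +N, 78.7 with +ND, 81.7 with +NF and 79.6 with +NFD, while Cenpk, of the inner kinetochore, was at 2.41, 10.0, 9.53 and 6.15. Ncapg2, a subunit of condensin II, had the order of Ncapg, at 4.27, 13.0, 9.10 and 8.79 FPKM.

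The 47 DNA replication and G1/S genes found in the table, the wave that precedes mitosis, were also lowest in +N in all cases, but differed in which medium was highest. They had median log2 ratios over +N of 0.77 in +NF, 0.63 in +ND and 0.86 in +NFD, with 7 (14.9%), 4 (8.51%) and 10 (21.3%) of them at least 2-fold higher, against 2.76%, 5.88% and 5.85% of all genes. After centring 1, 2 and 1 of the 47 were, against 1.89%, 4.67% and 4.04% of all genes, thus near or below that share. The highest library was +NFD for 31 of 47 (65.96%), against 4 of the 46 mitosis genes and 32.6% of all genes. The margin was small, with a median of 1.05-fold for +NFD over +NF in the replication genes. Rrm2, which makes deoxynucleotides, was at 27.0 FPKM with +N, 51.1 with +ND, 62.0 with +NF and 64.8 with +NFD. From +NF to +NFD 34 of the 47 were higher (29 after centring), against 5 of the 46 mitosis genes (1 after centring) and 57.2% of all genes. The medians of the replication and the mitosis genes were 0.07 and -0.21, a difference of -0.29. After centring, the median of the replication genes was 0.03. From +ND to +NFD the difference of the medians was -0.26. Over +N, the mitosis genes stood above the replication genes by 0.19 in +NF and by 0.08 in +ND and below them by -0.11 in +NFD. None of these differences changed sign under the alternative settings. Centring on all genes could not change them, since it subtracts the same value from both lists. Scaling a library shifts both lists nearly alike, so it could hardly change them either. Relative to coding genes of their own length class, the replication genes had medians of -0.01, -0.02 and 0.06 in +NFD over +NF, from the shortest class to the longest.

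**Figure D5:**
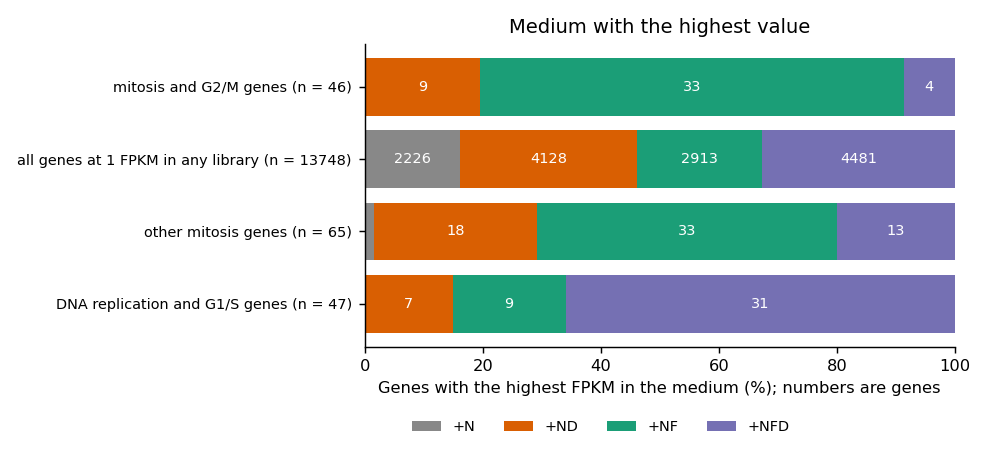
Share of genes whose highest FPKM was in each medium, for the mitosis and G2/M genes, all genes that reached 1 FPKM in any library, other mitosis genes and DNA replication and G1/S genes. The x axis is the percentage of genes and the numbers in the bars are genes. The +NF medium holds 33 of 46 members (21.2% of all genes), and +NFD holds 31 of 47 DNA replication and G1/S genes (32.6% of all genes).

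Regulators of the G2/M wave were described by the same values. Foxm1, the forkhead activator of mitosis genes, was at 8.73 FPKM with +N, 11.9 with +ND, 20.4 with +NF and 16.9 with +NFD, in the most frequent order among members. Mybl2, which encodes B-Myb, was at 3.72, 5.94, 6.81 and 8.23 FPKM and was highest in +NFD. Of the 12 repressors and inhibitors, 8 were higher than in +N in +NF, 9 in +ND and 10 in +NFD. Of all genes 65.7%, 58.2% and 69.1% were. Unlike most of this list, Cdkn1a, the p21 inhibitor of cyclin-dependent kinases, was highest in +N, at 324, 263, 241 and 282 FPKM. Rb1, the retinoblastoma protein gene, was at 7.54, 21.02, 11.8 and 11.2 FPKM and stood out in +ND. Over the 18 regulators the median log2 ratio over +N was 0.36 in +NF, 0.34 in +ND and 0.42 in +NFD. At least 2-fold higher were, in the same order, 1 (5.56%, against 2.76% of all genes), 1 (5.56%, against 5.88%) and 0 (against 5.85%).

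Several members share exonic sequence with a gene on the other strand, and the strand setting of the counting is not given in the sources used here, so fragments of such pairs cannot be told apart. The largest shared parts of a member's exons were 29.3% in Kif20a (with Cdc23), 22.8% in Ube2c (with Tnnc2, at most 0.0666 FPKM), 15.1% in Kif4 (with Pdzd11, at 40.2 to 44.7 FPKM) and 13.4% in Ncapg. Cdc23, at 17.7, 23.1, 27.2 and 30.4 FPKM for +N, +ND, +NF and +NFD, exceeded Kif20a, at 8.48, 12.7, 17.0 and 14.1, in every library and was itself lowest in +N, and its part in the Kif20a values was not tested. The partner of Ncapg, Lcorl, was itself highest in +ND, at 2.95 FPKM with +N, 5.85 with +ND, 3.70 with +NF and 3.46 with +NFD, and its part in the Ncapg values was not tested.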

How the data were processed

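Bulk RNA-seq values of DEOs in 4 media, each with 1 library, were used. The labels hold 6 media, and +NJ and +NFJ were not analysed here. The authors used FastQC 0.11.9 for quality checks, Trim Galore 0.6.5 for trimming and TopHat2 2.1.1 for alignment to GRCm38. The values they deposited are FPKM from Cufflinks. FPKM divides by transcript length and library size, so abundant transcripts lower the values of all others in a library. The annotation release, strand setting and Cufflinks options are not given in the sources used here. The table's count of samples per entry was not used.

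Entries of the same symbol were summed (123 symbols, no member). Ratios are differences of log2(FPKM + 1). A gene entered a comparison if the higher of its values reached 1 FPKM, and was counted at 2-fold. No test was possible with 1 library per medium. The named genes are any of the 46 members and any gene of the other lists (other mitosis, regulators, DNA replication and G1/S, cell type markers, housekeeping), with those of the largest and smallest ratios given values. Members and lists were chosen with earlier results of these data known. Lcorl, Tnnc2, Pdzd11, Cdc23 and Exosc9 were named after their values were seen, as overlapping genes.

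Depth was read from the step of 1 fragment in low values of 8367 genes with a single GENCODE M21 transcript of at least 1000 nt, and only 56.6% to 63.2% of such values lay within 0.2 of a whole fragment, so it is approximate. Counting intervals (95%) treat fragments as independent. Transcript lengths came from GENCODE M21 and promoter windows from RefSeq GRCm38.p6, in which both strands were searched. Alternatives were 2 other pseudocounts, 2 other filters, 2 scalings, centring and the highest entry per symbol, and, chosen after the data were seen, scaling to 8 housekeeping genes and centring within length classes. Scripts were tested on simulated data. The software was Python 3.11.15 with pandas 2.3.3, numpy 2.4.6, matplotlib 3.10.9 and scipy 1.17.1.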

Additional observations from a re-analysis of the deposited data

Results flagged for a closer look

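For DBZ, the median log2 effect on the 46 mitosis and G2/M genes was 0.71 without FGF10 and -0.21 with FGF10, and that on the 65 other mitosis genes was 0.64 and -0.14. These results are listed because the effects point in opposite directions in the presence and absence of the other factor, and the difference was not tested, since each medium had 1 library.

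Among single members, those with opposite effects of at least 0.4 on the log2 scale both ways are given. Mad2l1, a spindle checkpoint gene, had a DBZ effect of 0.65 without FGF10 and of -0.43 with it, and Aspm, a spindle pole gene, of 0.51 and -0.46. Ncapg and Smc4, condensin genes, had FGF10 effects of 1.24 and 0.97 without DBZ and of -0.71 and -0.59 with it. None of these differences was tested.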

How the results depend on the processing

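Of 16 results over the 46 members, each under 10 alternatives, the median of +NFD over +ND changed sign (-0.07 to 0.24) and no other median did. Of 160 values, 126 stayed within 1.5 times the count or, for medians, within a 95% order-statistic range over the member genes, which share their libraries, so that it is a yardstick and no test. Dropping the filter or taking the highest entry per symbol could not change a member's value, and all 16 results stayed under each. Centring likewise could not change the differences between the mitosis and the replication genes. These agreements were thus fixed in advance. For +NF over +N the median was 1.03 with a pseudocount of 0.1 and 1.04 with none (28 and 29 members at 2-fold), 0.87 with upper-quartile scaling (6), 1.09 with equal sums (33), 0.85 centred (6), 1.05 with housekeeping scaling (29) and 0.83 centred within length classes (5). For +ND over +N it was 0.63 with upper-quartile scaling (6), 0.87 with equal sums, 0.61 centred (5), 0.56 with housekeeping scaling (4) and 0.60 within length classes (4). For +NFD over +N it was 0.61 with upper-quartile scaling (0), 0.90 with equal sums (14), 0.58 centred (0) and 0.57 within length classes (0), and the count was 8 with housekeeping scaling. For +NFD over +ND it was 0.24 with housekeeping scaling. The median non-additivity was -1.09 with equal sums. The share of all genes at 2-fold was counted only for the main setting and, over +N, after centring on all genes. The counts at the other settings thus stand without it. The cause of these shifts was not tested. Of 8713 single-gene ratios, 428 crossed 2-fold and 0 changed sign from a 2-fold call.

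No paired analysis was possible because each medium had 1 library, and leaving out a library would leave no comparison. The spread between organoid cultures is unknown, so neither the size of a ratio nor the order of the media can be set against it. Each member's value rests on at least about 296 fragments, so counting error is small, but it does not cover culture or preparation. FPKM carries no information on absolute RNA per cell.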
